A study of Mus musculus with 21 samples.

Results

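Hras, Nras, Rap1a, Rap1b, Braf, Map2k1 and Mapk3 are 7 genes of the Ras, Raf and ERK cascade. They were chosen by gene symbol among the 5544 Ensembl genes in the deposited table of mouse cortex after high-frequency head impact (HF-HI). All 7 were in the table, and their paralogs Araf and Map2k2 are set beside them. RNA from the cortex of male C57BL/6 mice aged 12 weeks (the substrain C57Bl/6J in the study's methods) was sequenced 24 h after the last procedure. The HF-HI mice (n = 11) had received closed-head impacts on successive days under brief isoflurane anesthesia, and the sham mice (n = 10) had been handled and anesthetized in the same way without impact. The labels list no transgene and no drug for either group. The comparison asks how the impacts changed the cortical transcriptome at this early time.

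Ras and Rap proteins are small GTPases that switch between an inactive GDP-bound and an active GTP-bound form. Active Ras recruits Raf kinases to the membrane, Raf phosphorylates the MEK kinases, and MEK phosphorylates ERK, which acts on cytoplasmic substrates and on transcription factors in the nucleus. In cortical neurons the cascade is engaged by neurotrophin receptors and by calcium entry through glutamate receptors, and it is known for its part in synaptic plasticity. The cascade is controlled largely by phosphorylation and by GTP loading, neither of which RNA sequencing measures.

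Several of these proteins come in near-duplicate pairs encoded by diverged genes, so a stretch of coding sequence is shown for the Rap1 genes to let a reader see how reads of one paralog can be told from those of the other. The lines give coding bases 241 to 300, 5′ to 3′, counted from the A of the start codon in the GENCODE transcripts of GRCm38, and the capitals mark the positions at which both genes differ.
Rap1a: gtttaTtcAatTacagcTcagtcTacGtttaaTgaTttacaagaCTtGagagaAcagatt
Rap1b: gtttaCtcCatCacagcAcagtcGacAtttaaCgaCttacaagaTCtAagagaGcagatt
Rap1a and Rap1b differed at 12 of these 60 positions. Over the whole coding sequence the identity was 75.3% for Hras and Nras (567 bases each) and 81.7% for Rap1a and Rap1b (552 bases each). The longest run of bases shared by the transcripts of a pair was 23 for Hras and Nras, 20 for Rap1a and Rap1b, and 56 for Map2k1 and Map2k2. Rap1a had a near-identical copy outside the table, the processed pseudogene Gm9392, with 98.6% identity over 554 bases, so the share of its reads that the authors' counting may have split is not known. Braf shared 146 exonic bases, 1.1% of its exonic length, with Ndufb2 on the opposite strand.

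Of the 7 genes, Hras, the small GTPase at the entry of the cascade, and Map2k1, which encodes the kinase MEK1, fell in HF-HI, each by close to 0.30 on the log2 scale. Nras, Rap1a, Rap1b, Braf and Mapk3 did not pass the test. Testing used limma over all 5544 genes, with p-values adjusted after Benjamini and Hochberg and a threshold of 0.05, applied to variance-stabilized values, which lie on a log2 scale. Differences are HF-HI minus sham on this scale. Of all genes tested, 66.3% were called, 33.6% lower and 32.6% higher in HF-HI, so a count of 2 called among 7 is below that background and no direction can be read from the count alone. The median difference of the 7 genes was -0.061, beside -0.0086 over all genes. None of the 7 had groups that did not overlap, where 13.5% of all genes did.

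**Figure D1:**
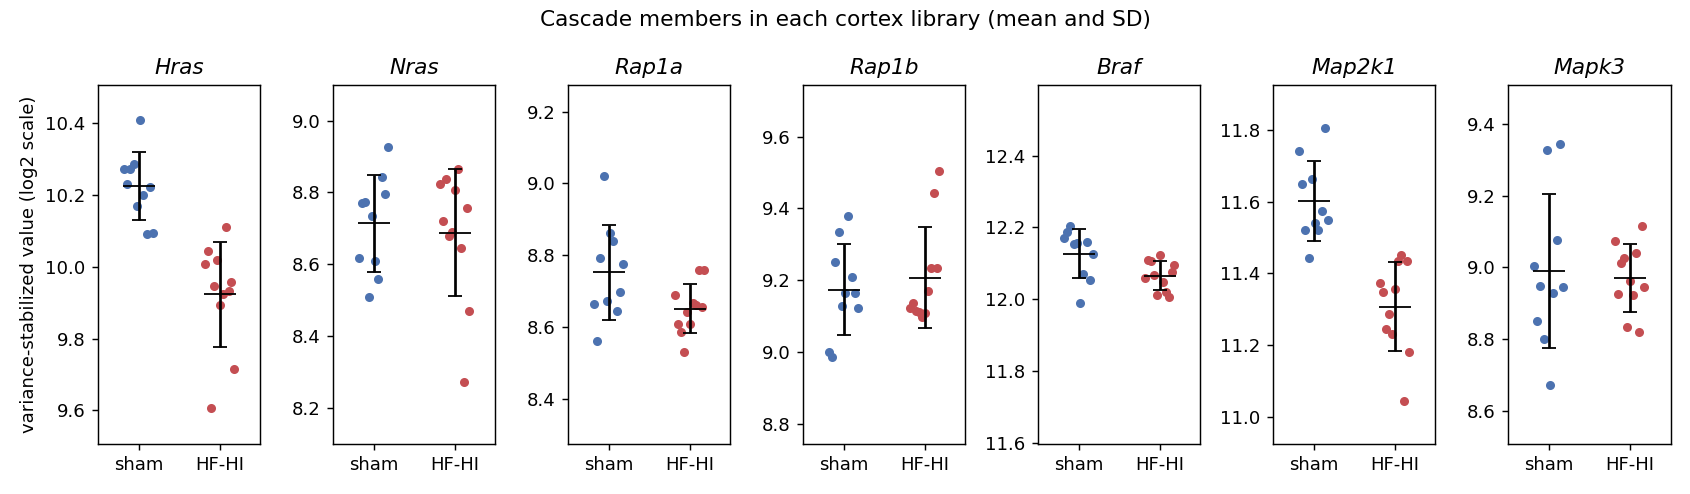
Variance-stabilized value (log2 scale, each panel spanning 1 unit) of each member in the 10 sham and 11 HF-HI cortex libraries, with 1 point per library and bars giving the mean and SD. Hras and Map2k1 are lower in HF-HI with 10 of 11 libraries below the lowest sham value, and the groups overlap widely for the other genes.

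Libraries differed in ways that bear on these values. The slope of a library's values on exonic GC content ran from -0.23 to 0.0058 log2 units per 10% GC in sham and from -0.039 to 0.16 in HF-HI. Relative depth, read from the spacing of the values, ran from 0.580 to 1.26 in sham and from 0.548 to 1.64 in HF-HI. HF-HI library 9 lay farthest from the rest of its group, at a root mean square distance of 0.256 against 0.108 to 0.167 for the others. Total depth is unknown. Values with the GC trend removed are those from which each library's smooth dependence on GC had been subtracted, a step that would also take out any biological difference that follows GC content.

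Cortical identity was checked on marker lists. Of 10 cortex markers 7 were in the table, 5 of them higher and 0 lower, and their summed level ran from 13.2 to 13.5 in sham and from 13.9 to 14.1 in HF-HI, without overlap. All 12 neuron markers were in the table, 9 higher and 1 lower. Their summed level ran from 16.65 to 16.82 in sham and from 16.83 to 16.99 in HF-HI, also without overlap. Astrocyte markers (8 of 10 in the table, 3 higher and 2 lower) and oligodendrocyte markers (9 of 10, 3 higher and 0 lower) overlapped between the groups in their summed levels. Microglia and endothelium had 2 of 10 markers each in the table, 1 higher and 1 lower in both lists. For the choroid plexus 1 of 5 markers was present, Ttr, which ran from 6.16 to 11.5 in sham and from 6.86 to 13.3 in HF-HI. In whole cortex, fewer cells of a type and less RNA per cell cannot be told apart, and the part of these lists in the differences below was not tested.

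Hras (ENSMUSG00000025499, chr7:141189105-141194005, minus strand, GRCm38) encodes one of the classical Ras GTPases. Its value ran from 10.09 through a median of 10.23 to 10.41 in sham and from 9.61 through 9.95 to 10.11 in HF-HI. All 11 HF-HI libraries lay below the sham median and 10 of 11 below the lowest sham library, with HF-HI library 8 the exception. The sham mean was 10.2 ± 0.0945 (SD, n = 10) and the HF-HI mean 9.92 ± 0.146 (SD, n = 11). Hras fell by 0.30 (SE 0.0522, 95% interval -0.41 to -0.19, limma with Benjamini-Hochberg adjustment, adjusted p = 2.8e-05), a change of -18.9% if the scale is read as log2 of abundance. Its exonic GC content, 56.6%, placed it in the highest of 10 equal bins of genes ordered by GC content, where 65.5% were higher and 7.9% lower with a median difference of 0.26. With the GC trend removed its difference was -0.50 (limma, adjusted p = 6.87e-07).

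Map2k1 (ENSMUSG00000004936, chr9:64185770-64253631, minus strand) encodes MEK1, one of the dual-specificity kinases that phosphorylate ERK. It ran from 11.44 through 11.56 to 11.81 in sham and from 11.04 through 11.35 to 11.45 in HF-HI. The groups touched only where HF-HI library 8, at 11.45, met sham library 4, at 11.44. The sham mean was 11.6 ± 0.112 (SD, n = 10) and the HF-HI mean 11.3 ± 0.125 (SD, n = 11). Map2k1 fell by 0.29 (SE 0.0501, 95% interval -0.40 to -0.19, limma with Benjamini-Hochberg adjustment, adjusted p = 2.44e-05). With an exonic GC content of 51.1% it lay in bin 7 of the 10, where 43.0% were higher and 23.6% lower, and with the GC trend removed its difference was -0.37 (limma, adjusted p = 3.28e-07).

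As the pair that was called, Hras and Map2k1 are shown with their promoters, read on the gene's strand across its annotated start (RefSeq, GRCm38.p6). The capitals mark CCAAT on either strand, which reads as ATTGG on the other strand. The Hras window is chr7:141193955-141194254 and the Map2k1 window chr9:64253556-64253855.
Hras: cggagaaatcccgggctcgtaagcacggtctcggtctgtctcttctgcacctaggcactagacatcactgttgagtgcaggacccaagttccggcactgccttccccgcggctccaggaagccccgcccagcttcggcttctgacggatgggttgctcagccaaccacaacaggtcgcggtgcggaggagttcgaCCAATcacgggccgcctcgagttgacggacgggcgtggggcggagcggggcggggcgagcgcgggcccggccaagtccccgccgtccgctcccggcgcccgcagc
Map2k1: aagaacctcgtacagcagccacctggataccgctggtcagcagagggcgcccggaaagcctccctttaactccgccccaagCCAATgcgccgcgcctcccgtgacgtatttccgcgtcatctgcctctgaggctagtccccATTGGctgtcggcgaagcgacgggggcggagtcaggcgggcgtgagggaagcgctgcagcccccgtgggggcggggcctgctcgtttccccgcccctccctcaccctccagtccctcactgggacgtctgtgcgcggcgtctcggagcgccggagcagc
Both windows held 69.0% GC, beside a median of 52.7% over 32851 promoters. High promoter GC was not particular to the called pair. Among members that were not called, the Rap1b window held 78.0% and the Nras window 52.3%, with Braf between Nras and the pair. Promoter sequence was found for 5 of the 7 genes, all but Rap1a and Mapk3. CCAAT was in 2 of these 5 promoters, those of Hras and Map2k1, and in 37.4% of all promoters. GGGCGG, searched on both strands, was in 5 of 5 and in 35.7% of all. TGACGTCA, the cyclic AMP response element, was in the promoters of Braf and Rap1b and in 1.8% of all, and TATAAA was in 0 of 5 and in 13.6% of all. These matches describe letters in a window and no binding was measured.

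Nras (ENSMUSG00000027852, chr3:103058285-103067914, plus strand) encodes a second classical Ras GTPase. Its value ran from 8.51 through 8.75 to 8.93 in sham and from 8.27 through 8.72 to 8.86 in HF-HI, with nearly complete overlap. HF-HI libraries 9 and 11 gave the lowest values of the group, 8.27 and 8.47, and they are also the libraries of lowest relative depth. The difference was -0.026 (SE 0.0654, 95% interval -0.16 to 0.11, limma, adjusted p = 0.74), and it was 0.016 without HF-HI library 9, 0.022 without the 3 shallowest libraries and 0.054 with the GC trend removed, none of which passed the test.

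Rap1a (ENSMUSG00000068798, chr3:105727267-105801336, minus strand) and Rap1b (ENSMUSG00000052681, chr10:117813871-117846035, minus strand) encode Ras-related GTPases that can reach ERK through B-Raf and that also regulate integrin adhesion. Rap1a ran from 8.56 through 8.74 to 9.02 in sham and from 8.53 through 8.66 to 8.76 in HF-HI, with 9 of 11 HF-HI libraries below the sham median. Its difference was -0.10 (SE 0.0456, 95% interval -0.20 to -0.0068, limma, adjusted p = 0.0546), just outside the threshold, and it was 0.030 with the GC trend removed (adjusted p = 0.477). It passed with library medians centred, at -0.15 (adjusted p = 0.00574), and after quantile normalization, at -0.15 (adjusted p = 0.00814). Rap1b ran from 8.98 through 9.16 to 9.38 in sham and from 9.10 through 9.14 to 9.50 in HF-HI. Its highest values came from HF-HI libraries 11 and 9, at 9.50 and 9.44, the only ones above the sham range. The difference of Rap1b was 0.033 (SE 0.0561, 95% interval -0.083 to 0.15, limma, adjusted p = 0.614), it was -0.0082 without the 3 shallowest libraries, -0.019 with library medians centred and -0.0020 after quantile normalization, and with the GC trend removed it was 0.15 and passed (adjusted p = 0.00793).

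Braf (ENSMUSG00000002413, chr6:39603237-39725463, minus strand) encodes B-Raf, the Raf kinase with the highest basal activity. It varied least among the members, with an SD of 0.068 in sham and 0.041 in HF-HI. It ran from 11.99 through 12.16 to 12.20 in sham and from 12.01 through 12.07 to 12.12 in HF-HI. All 11 HF-HI libraries lay below the sham median, yet none lay below the lowest sham library. The difference was -0.061 (SE 0.0281, 95% interval -0.12 to -0.0031, limma, adjusted p = 0.0586) and 0.063 with the GC trend removed (adjusted p = 0.133). It passed with library medians centred, at -0.11 (adjusted p = 0.00108), after quantile normalization, at -0.091 (adjusted p = 0.00841), and in a Wilcoxon rank-sum test (adjusted p = 0.0378). Braf lies in the lowest of the 10 bins by GC content, where 64.8% were lower and 6.9% higher.

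Mapk3 (ENSMUSG00000063065, chr7:126759601-126765819, plus strand) encodes ERK1. It ran from 8.67 through 8.95 to 9.34 in sham and from 8.82 through 8.96 to 9.12 in HF-HI, so the HF-HI values lay within the sham range. The difference was -0.019 (SE 0.0666, 95% interval -0.16 to 0.12, limma, adjusted p = 0.815). Its sign depended on single sham libraries, being 0.019 without sham library 5 and 0.021 without sham library 9. With the GC trend removed, Mapk3 was lower by a difference of -0.25 and passed (limma, adjusted p = 0.000351). Its exonic GC content, 57.7%, lies in the same highest bin as that of Hras.

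**Figure D2:**
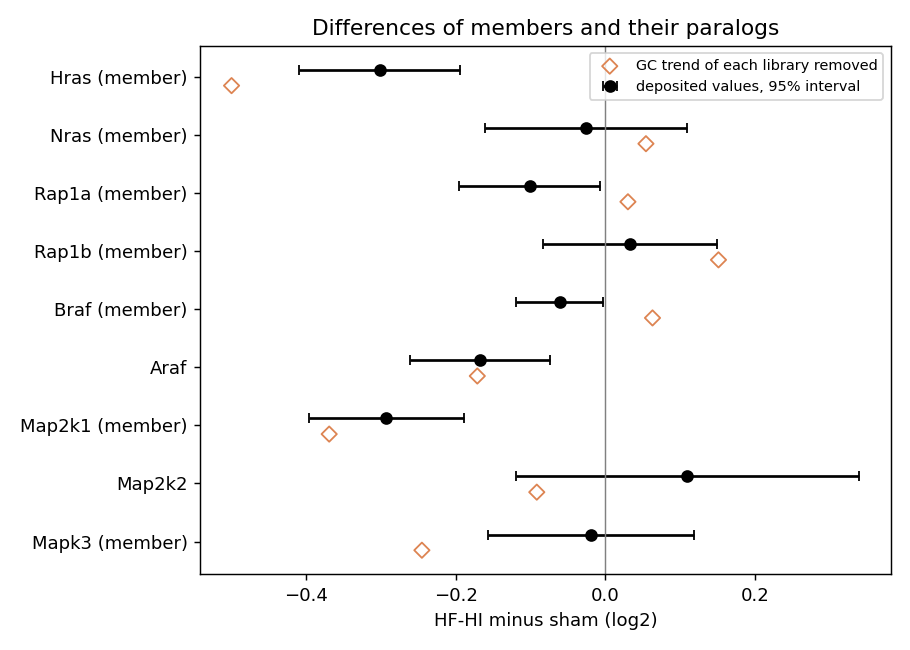
HF-HI minus sham (log2) for the 7 members and the paralogs Araf and Map2k2, with filled points and bars for the deposited values with their 95% interval and open diamonds for the values with the GC trend of each library removed. Hras and Map2k1 lie below 0 on both scales, whereas Nras, Rap1a, Braf and Map2k2 change sign between them.

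**Figure D3:**
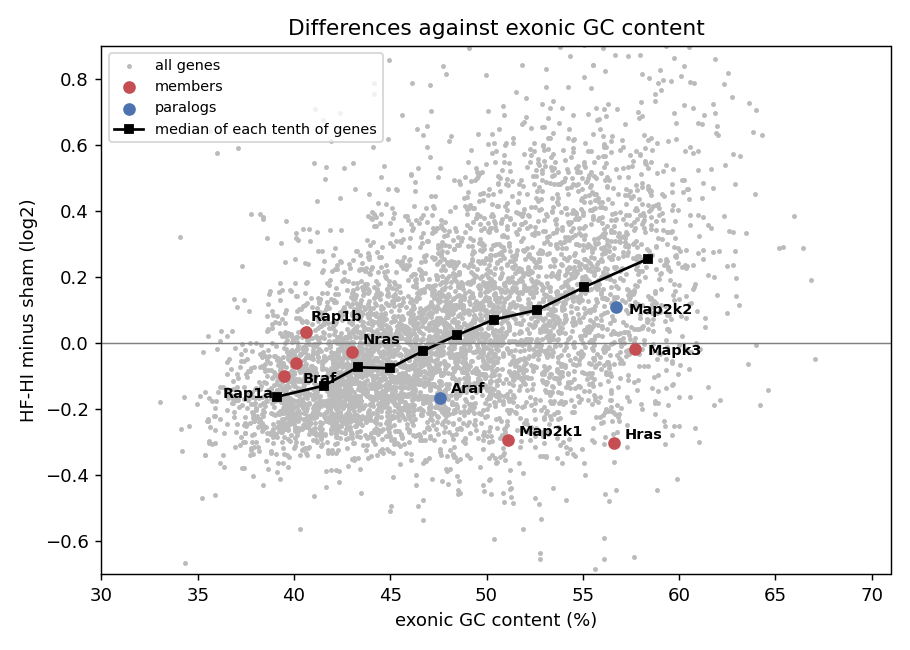
HF-HI minus sham (log2) against exonic GC content (%) for the genes with a GC value, with members in red, paralogs in blue and squares joined by a line for the median of each of 10 bins of genes; the axis leaves out 61 of 5539 genes beyond -0.7 or 0.9. The medians climb from -0.16 in the lowest bin to 0.26 in the highest. The members Hras, Mapk3 and Map2k1 and the paralogs Araf and Map2k2 lie below the line.

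Levels of different genes were compared per kilobase, as the variance-stabilized value minus log2 of the exonic length in kilobases. Among these genes in sham, Map2k1 was highest at 9.84. Braf at 8.33 and Hras at 8.32 came next and overlapped each other over the sham libraries. Mapk3 at 7.81, Araf at 7.71, Rap1b at 7.65 and Rap1a at 7.37 overlapped from one to the next, and Nras at 6.30 and Map2k2 at 6.06 came last and also overlapped. The levels rest on exonic union lengths, which can exceed the transcript that cortex uses.

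Paralog was then set against paralog as the difference of the values within each library, which removes what both genes share in a library. The change of that difference between the groups was tested by permutation (two-sided, 100000 resamples), with Benjamini-Hochberg adjustment over 8 pairs, of which 4 are reported. Of these 4 pairs 3 passed, and the groups overlapped in each.

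Among the classical Ras genes, Hras dropped against Nras. Hras minus Nras ran from 1.17 through 1.48 to 1.80 in sham and from 0.77 through 1.24 to 1.66 in HF-HI. Its mean changed from 1.51 ± 0.209 (SD, n = 10) to 1.24 ± 0.23 (SD, n = 11), a change of -0.28 (permutation test, adjusted p = 0.0147). With the GC trend removed the change was -0.55 (adjusted p = 0.00088).

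Rap1a minus Rap1b ran from -0.57 through -0.44 to -0.30 in sham and from -0.75 through -0.53 to -0.43 in HF-HI. The change was -0.13 (permutation test, adjusted p = 0.00636) although neither gene passed on its own, and 5 of 11 HF-HI libraries lay below the sham range. Without the 3 shallowest libraries the change was -0.087 (adjusted p = 0.0394), a value more than 1.5 times smaller. A replicate block is a term for each replicate number. With the GC trend removed and this block the change was -0.10 and did not pass (limma, adjusted p = 0.0622). HF-HI library 11 has no sham library of its number, so it adds nothing to the group difference in a fit with the block.

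Among the Raf kinases, Araf (A-Raf) fell and Braf did not pass. Araf fell by 0.17 (SE 0.0454, limma, adjusted p = 0.00252), from a sham mean of 10.4 ± 0.124 (SD, n = 10) to an HF-HI mean of 10.3 ± 0.0861 (SD, n = 11), with all 11 HF-HI libraries below the sham median. Braf minus Araf ran from 1.45 through 1.71 to 1.98 in sham and from 1.69 through 1.82 to 1.96 in HF-HI. It changed by 0.11 (permutation test, adjusted p = 0.0928) and did not pass, but it changed by 0.23 and passed with the GC trend removed (adjusted p = 0.0032).

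Map2k1 minus Map2k2, MEK1 against MEK2, ran from 2.62 through 3.07 to 3.44 in sham and from 2.37 through 2.57 to 3.05 in HF-HI. The change was -0.40 (permutation test, adjusted p = 0.00293), the largest of the 4 pairs on the deposited values. With the GC trend removed it was -0.28 (permutation test, adjusted p = 0.00624), smaller than the -0.55 of Hras minus Nras. Map2k2 itself differed by 0.11 (SE 0.111, limma, adjusted p = 0.392) and by -0.092 with the GC trend removed, and neither passed.

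**Figure D4:**
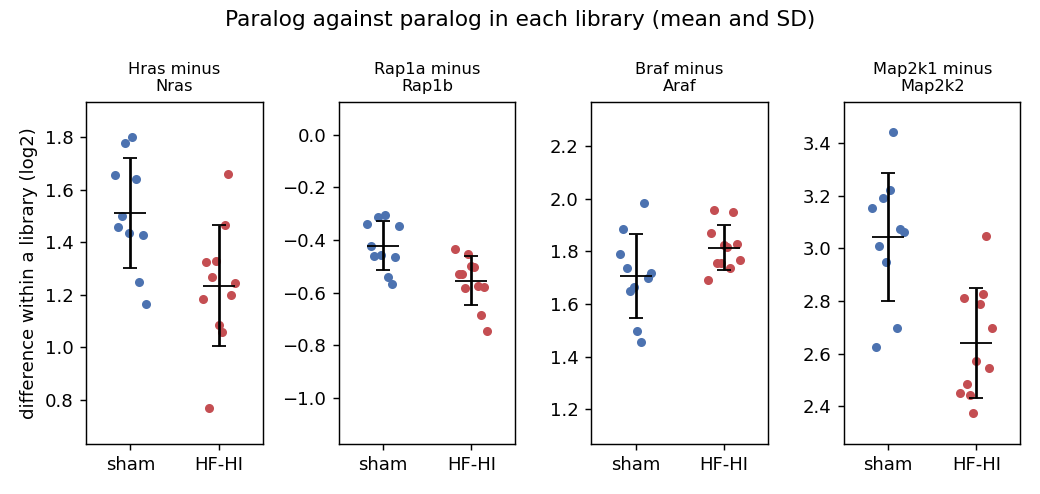
Difference within each library (log2, each panel spanning 1.3 units) between the paralogs of 4 pairs in the sham and HF-HI libraries, with 1 point per library and bars for the mean and SD. Hras minus Nras, Rap1a minus Rap1b and Map2k1 minus Map2k2 are lower in HF-HI, with overlapping groups in each.

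The other genes of the pathway were taken from 12 lists by role. Of 163 genes listed besides the members, 88 were in the table and 56 were called, 63.6% beside 66.3% of all genes, with 36 higher (40.9%) and 20 lower (22.7%). The split was 30 higher and 26 lower with library medians centred, and 30 higher and 23 lower after quantile normalization. Shares of all genes under these settings are not given here. The median difference of the 88 pathway genes was 0.043. The groups did not overlap for 13 of the 88, beside 13.5% of all genes, so this count is near the background. Adjusted p-values in the next paragraphs come from the same limma fit with Benjamini-Hochberg adjustment over all genes.

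Among the genes that load or unload GTP, exchange factors went both ways and GTPase-activating proteins were mostly higher. Of 11 exchange factors 3 were higher and 2 lower, with Rasgrf1, a calcium-responsive Ras activator of neurons, higher by 0.46 (SE 0.065, adjusted p = 2.49e-06), Rapgef1, an activator of Rap1, higher by 0.42 (0.23 with the GC trend removed), and Rapgef5 lower without overlap (-0.32, adjusted p = 3.9e-07). Of 12 GTPase-activating proteins 6 were higher and 2 lower, with a median of 0.12. Dab2ip, a Ras inhibitor, rose by 0.46 without overlap (adjusted p = 1.03e-06; 0.18 with the GC trend removed), and Rap1gap by 0.39, although Rap1gap was at 0.084 and did not pass with the GC trend removed (adjusted p = 0.133). Of the 6 other Ras-family GTPases in the table, Rap2b rose by 0.49 (adjusted p = 0.000173), Rap2a rose by 0.13, and Rit2, a neuronal member, was lower at -0.16 (adjusted p = 0.00965), which did not pass with the GC trend removed at -0.014.

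Between receptor and kinase, 5 of 13 adaptors and receptors were higher and 2 lower, with a median of 0.026. This split depended on the GC trend. With the trend removed Ntrk2, Ptpn11 and Crkl passed as higher. Fgfr2 (-0.19), Fgfr3 (-0.25), Grb2 (-0.11) and Shc2 (-0.12), named after their values were seen, then passed as lower. Shc3, a neuronal adaptor, rose by 0.25 and did not pass with the GC trend removed at 0.064. Crkl rose by 0.24 and Ptpn11 (SHP2), a phosphatase that promotes Ras activation, by 0.23. Of 12 Raf kinases and regulators 4 were higher and 5 lower. The 14-3-3 genes Ywhae and Ywhag, whose proteins bind phosphorylated Raf, rose by 1.06 (adjusted p = 4.25e-08) and 0.50 (adjusted p = 1.43e-07) without overlap, and the scaffold gene Ksr2 rose by 0.52. Of the other 14-3-3 genes, named after their values were seen, Ywhaz rose by 0.15 (adjusted p = 0.00426), Ywhaq fell (-0.23, adjusted p = 2.4e-05), and Ywhab and Ywhah did not pass, at 0.037 and 0.11. Pebp1, an inhibitor of Raf named in the same way, fell without overlap (-0.28, adjusted p = 4.29e-05). Of 4 scaffold genes, Lamtor1, which anchors MEK1 signalling to late endosomes, fell without overlap (-0.26, adjusted p = 1.24e-05), and Pea15a, which binds ERK in the cytoplasm, rose by 0.16, which did not pass with the GC trend removed (0.091, adjusted p = 0.0637).

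Downstream, 5 of 6 negative feedback and phosphatase genes were higher and 0 lower, with a median of 0.41. Spred2, which blocks Ras-dependent activation of Raf, ran from 8.33 to 8.87 in sham and from 9.14 to 9.52 in HF-HI and rose by 0.72 (SE 0.0576, adjusted p = 9.02e-10). Ptpn5 (STEP), a neuronal phosphatase that inactivates ERK, rose by 0.71 (adjusted p = 1.36e-05), and Dusp3 rose by 0.43 without overlap. Of 6 genes for ERK-responsive transcription factors 4 were higher and 1 lower, with a median of 0.39. Egr1 ran from 8.83 to 9.86 in sham and from 10.05 to 10.82 in HF-HI and rose by 1.10 (adjusted p = 1.41e-08), Junb rose by 0.97 (0.61 with the GC trend removed) and Etv5 by 0.48. Among 3 ERK substrate kinases Rps6ka5 (MSK1) and Rps6ka3 (RSK2) were lower, at -0.25 and -0.15, and Rps6ka2 was higher at 0.19, but with the GC trend removed Rps6ka5 was at -0.13 (adjusted p = 0.0388) and Rps6ka3 and Rps6ka2 did not pass. Of 5 lipid modification genes, which serve membrane attachment of Ras, Abhd17b (-0.22) and Golga7 (-0.14, adjusted p = 0.0235) were lower. With the GC trend removed Abhd17b was at -0.12 (adjusted p = 0.0281) and Golga7 at -0.097 and not past the threshold (adjusted p = 0.0882), and Golga7 also lost its call in a Wilcoxon rank-sum test (adjusted p = 0.0864), with relative depth as a covariate (adjusted p = 0.061) and in 2 of 21 fits that each left out 1 library.

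**Figure D5:**
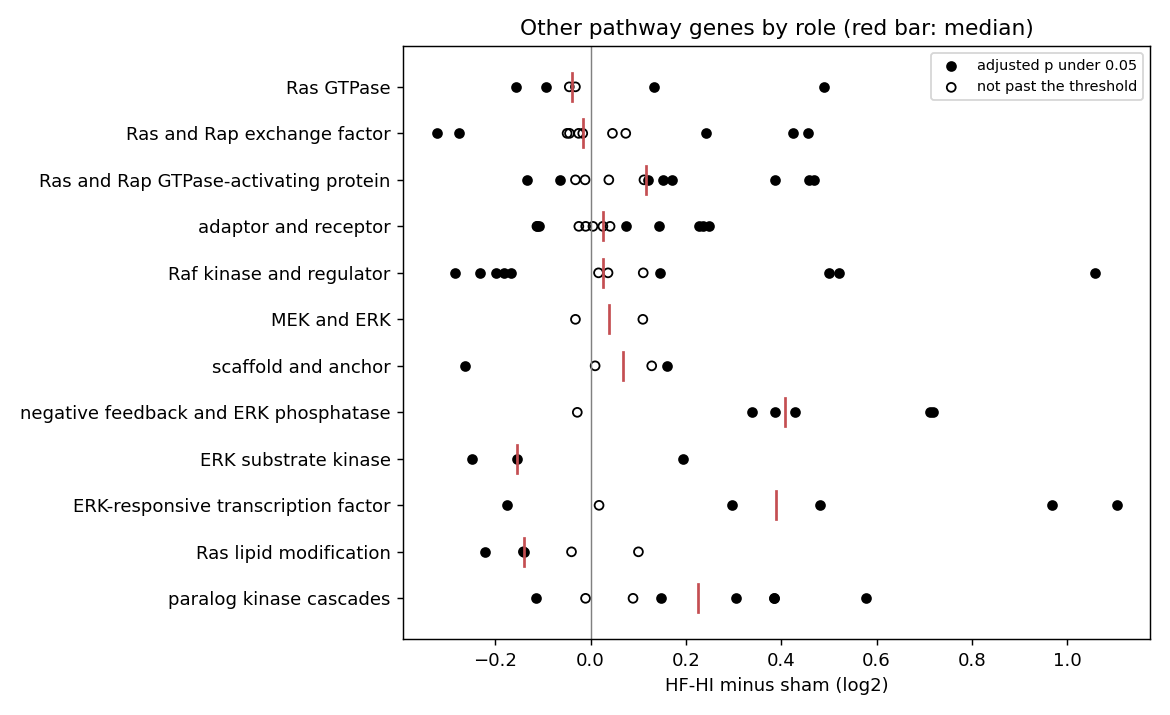
HF-HI minus sham (log2) of 88 pathway genes other than the members, grouped by role in 12 rows, with filled points for an adjusted p under 0.05, open points for the rest and a red bar for the median of the row. The feedback and phosphatase genes and the ERK-responsive transcription factors have the highest medians, 0.41 and 0.39.

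The genes whose profile lay closest to each member were found as the smallest root mean square distance over the 21 libraries, each gene centred on its mean. For Hras they were Ptcd3 (0.0746) and Eif4a1 (0.0806), and for Map2k1 they were Vhl (0.069) and Itm2c (0.0715). Braf had the smallest distances, to Htt (0.0448) and Eml4 (0.0475). The distance is not scaled by the spread of a gene, and Braf also varied least among the members. Distances of different members therefore do not rank how closely each follows its neighbours. Rap1a lay nearest to Rlim (0.063) and Srsf3 (0.0666), Rap1b to Cnst (0.0814) and Pcm1 (0.0831), Nras to Smarcal1 (0.0868) and Hdac3 (0.0911), and Mapk3 to Usp11 (0.0937) and Spon1 (0.101). None of these neighbours was a member or a paralog of one.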

How the data were processed

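Cortical RNA from 10 sham and 11 HF-HI mice was measured, 1 library per mouse as labelled. The authors removed ribosomal RNA, made stranded libraries, aligned reads to mm10 with STAR, counted them per transcript with eXpress and normalized with DESeq2. The deposited values are variance-stabilized on a log2 scale, for 5544 genes. Shares of all genes refer to these 5544 genes and not to every gene expressed in cortex. Versions of STAR and eXpress and the gene annotation are not given in the sources used here. Counts were not analysed here, so total depth is unknown, and relative depth was read off the steps between values. The median SD within a group was 0.104.

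Symbols, positions and exonic GC content came from GENCODE (GRCm38, the mm10 assembly), with a symbol for 5541 genes and GC for 5539. The comparison of HF-HI with sham used R 4.3.3 and limma 3.58.1 (two-sided, lmFit and eBayes with trend, Benjamini-Hochberg adjustment). Python 3.11.15 with pandas 2.3.3, scipy 1.17.1, numpy 2.4.6 and matplotlib 3.10.9 served for the rest. GC trends were removed per library with a lowess curve of span 0.3.

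The members, lists and tests were chosen with earlier results of these data known. Named genes are the members, their paralogs, up to 3 called genes with the largest absolute difference per role list, and the 2 nearest profiles of each member. Both removals of shallow libraries, and relative depth as a covariate, were added after seeing the data. Some genes that the rule names are not reported here, though they stay in the fits, the counts of the lists and the adjustment over pairs.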

Additional observations from a re-analysis of the deposited data

How the results depend on the processing

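Hras and Map2k1 were lower and called under every alternative tried. With each of the 21 libraries left out in turn Hras ran from -0.32 to -0.27 and Map2k1 from -0.31 to -0.27, and the number of members called was 2 to 3. It was 4 with library medians centred, with quantile normalization, with the GC trend removed, with the GC trend removed and a replicate block, and at an adjusted p under 0.1. Members lower were 4 with medians centred, with quantile normalization and at 0.1, where Rap1a and Braf joined. Members higher were 1 with the GC trend removed, with that and the block, and with relative depth as a covariate, in each case Rap1b. The shares of all genes given above belong to the fit without these changes. Matching shares under each alternative are not given here, so these counts cannot be set against a background. Among the leave-one-out fits Rap1a was called in 6 of 21 and Braf in 4 of 21. Requiring an absolute difference of 0.25 left 26 pathway genes, 22 higher and 4 lower. The share of all genes past this cut is not given here, so no direction of the pathway can be read from that split. Centring medians shifted the median gene by 0.052.

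Differences that changed sign under GC trend removal, and with the replicate block added, were Nras at 0.054 and 0.080, Rap1a at 0.030 and 0.026, Braf at 0.063 and 0.066, and Map2k2 at -0.092 and -0.081. Rap1b was -0.019 with medians centred and -0.0020 after quantile normalization, and the depth covariate gave Map2k2 -0.0038. The cause was not tested. Leaving out 1 library gave -0.049 to 0.016 for Nras and -0.054 to 0.021 for Mapk3.

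HF-HI libraries 9 and 11 were removed together after their Nras and Rap1b values had drawn attention to them. Nras was then 0.044, Rap1b -0.026 and Mapk3 0.00075. Sham library 4 is about as shallow and stayed in that fit, so the 3 shallowest libraries of both groups were also removed by depth alone, which gave Nras 0.022 and Rap1b -0.0082. Both removals called 3 members, with Rap1a the third.

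The labels do not say whether replicate numbers pair the libraries. The deviations of same-numbered libraries correlated between -0.31 and 0.36, 4 of 10 pairs over 0.1, and 0 sham libraries were closest to their own number. With so few pairs these values cannot settle whether same-numbered libraries shared a batch. With the replicate block, where HF-HI library 11 does not bear on the group difference, 2 members and 55 pathway genes were called. Depth is known only relative to other libraries, which limits what can be said of Nras, Rap1a and Map2k2. These are low among the genes in the table, at percentiles 8.8, 8.8 and 5.4 of mean value.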

Other observations

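The genes of the kinase cascades that run beside ERK were called about as often as all genes, of which 66.3% were called. The table held 8 genes for JNK, p38 and atypical MAP kinases and their activators. Of these 5 were higher in HF-HI and 1 was lower, with a median difference of 0.23. Mapk4, an atypical MAP kinase, ran from 8.97 to 9.38 in sham and from 9.59 to 9.94 in HF-HI and was higher by 0.58 (SE 0.051, limma with Benjamini-Hochberg adjustment, adjusted p = 3.67e-09). Mapk6 (ERK3) was higher by 0.38 and Mapk14 (p38 alpha) by 0.38, both without overlap of the groups. With the GC trend removed Mapk4 was at 0.43, Mapk6 at 0.42 and Mapk14 at 0.30, and all 3 passed.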
